A study of Mus musculus with 11 samples.

Results

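The proteasome genes of mouse glomeruli were followed as 1 group of 48 genes among the 13734 genes of the deposited table. The rule took every gene symbol made of Psma, Psmb, Psmc, Psmd, Psme, Psmf or Psmg followed by a digit, without regard to measured values. All 48 were measurable in every library. By name and known role they were 7 subunits of the 20S alpha ring, 7 constitutive subunits of the 20S beta ring, 3 immunoproteasome subunits, 6 ATPases and 11 further subunits of the 19S particle, 5 activator genes, 1 inhibitor and 7 assembly chaperones. A further match, Psmc3ip, shares only the name: it encodes a partner protein of Psmc3 known for its part in meiotic recombination.

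The proteasome is the protease that degrades proteins tagged with ubiquitin. Its 20S barrel is built from outer alpha rings, which gate the entry, and inner beta rings, which hold the catalytic sites, and 19S caps bind ubiquitin chains, remove them and unfold the substrate. Interferon-gamma brings in the immunoproteasome subunits Psmb8, Psmb9 and Psmb10, which replace Psmb5, Psmb6 and Psmb7 in newly built barrels and alter the peptides offered to class I histocompatibility molecules. In the kidney, proteasome activity is known to matter for podocytes, the long-lived filtration cells of the glomerulus, and immunoproteasome subunits are known from leukocytes and endothelial cells.

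The study gave puerarin, an isoflavone glycoside of kudzu root, to male mice homozygous for the db mutation of the leptin receptor, which become obese and diabetic. The groups were db/db mice on puerarin (3 libraries), fed by gavage at a daily dose of 20 mg per kg in 5% DMSO, db/db mice on 5% DMSO alone (4 libraries) and heterozygous db/m littermates on 5% DMSO (4 libraries). Treatment ran for 6 weeks from 10 weeks of age, and glomeruli were isolated from the kidneys. The labels place the mice on the BKS background while the strain field names C57BL/6J. All groups received DMSO, the db mutation acts in every tissue, and whether a library stands for 1 animal or a pool is not stated in the labels.

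Total counts ran from 35369703 to 44244460 per library. The titles name libraries either by an S number (5 libraries, 1 of them from puerarin) or by a group tag with a number (6 libraries). Both forms occurred in every group, and the form of the name was a term in the fit. The labels call all mice male. Against that, Xist, which coats the silenced X chromosome, was at 528 and 819 CPM in libraries 2 and 3 of db/db puerarin, while the other 9 libraries had 0.519 to 6.47 CPM. Their Y-linked Ddx3y stood at 3.06 and 0.909 CPM, while the other 9 had 50.3 to 85.2 CPM. For comparisons with puerarin, list medians and the fold changes of most genes described are also given without these 2 libraries, a setting that was extended to the lists and pathway genes after seeing the data. That leaves db/db puerarin S144 alone in its group, and it is then assumed to vary like the other groups. Podocyte and glomerular endothelial markers (10 of 10 on each list) were measured in every library, with Nphs1, the slit diaphragm protein nephrin, at 1178 to 1567 CPM. Tubule markers were present too and varied: Umod, the marker of the thick ascending limb, ran from 472 CPM in db/db puerarin S144 to 3562 CPM in db/db vehicle 3.

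Proteasome genes were abundant in glomeruli. Levels were compared between genes as RPKM, the reads on the gene's highest transcript scaled by its length and by the library's total, averaged over the 11 libraries. The median over the 48 genes was 44.9 RPKM, against 10.3 RPKM over all 13734 genes, and 47 of the 48 lay above that second median. The exception was Psmc3ip at 3.34 RPKM, whose lowest library held 54 reads. The 48 genes together took 0.364% to 0.406% of the reads counted on the highest transcript of each gene.

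Although every barrel subunit is built into the complex in equal copy number, their transcript levels were not equal. The highest were Psmb4 at 193, Psmb3 at 161 and Psmb5 at 148 RPKM. Psma3, counted here on 1 of its 3 transcripts, was the lowest constitutive barrel subunit at 25.9 RPKM. Among the alpha subunits Psma7 (141 RPKM) and Psma6 (121 RPKM) led. In the 19S particle, the ATPases Psmc3 and Psmc1 stood at 103 and 105 RPKM and Psmc6 at 31.3 RPKM. Of the other 19S subunits, Psmd8 (83.9 RPKM) and Psmd3 (72.1 RPKM) were highest by this measure, and Psmd2 was at 66.7 RPKM. Psmd14, the deubiquitinase that removes ubiquitin chains at the cap, was at 23.7 RPKM, and Psmd11, a lid subunit that clamps the cap to the barrel, at 23.9 RPKM. The inhibitor Psmf1 (10.7 RPKM), the large activator Psme4 (12.6 RPKM) and the barrel chaperones Psmg3 (13.0 RPKM) and Psmg2 (13.0 RPKM) were low. These values use 1 length per gene, so a gene expressed from shorter or longer transcripts than the one counted would be misplaced.

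The catalytic subunits of the immunoproteasome were present but below their constitutive counterparts in all 11 libraries. Psmb8, Psmb9 and Psmb10 averaged 32.9, 23.5 and 33.7 RPKM, and Psmb5, Psmb6 and Psmb7, which they replace, 148, 128 and 123 RPKM. The highest single value of the immunoproteasome genes, 47.1 RPKM for Psmb8, was below the lowest of the constitutive genes, 109.9 RPKM for Psmb7. Tissue-specific barrel subunits outside this set, Psmb11 of the thymus and Psma8 of the testis, were not among the genes listed.

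Most of the 48 genes varied little between libraries of a group. The SD of log2 CPM within groups had a median of 0.132 over the 48 and 0.21 over all genes. Over the 47 without Psmc3ip it was 0.134, against 0.192 over the 10172 genes within the range of mean CPM of those 47. The steadiest were Psme3, a nuclear activator, and Psmf1, each at 0.0721, and Psmc3 at 0.0729. The most variable were Psmb9 at 0.308, Psmb8 at 0.296, Psmg4 at 0.259, Psma3 at 0.209 and Psmb10 at 0.205, so that the 3 immunoproteasome genes were all among the 5 most variable. Between the lowest and the highest of the 11 libraries Psmb9 spanned 1.18 log2 units, while Psmc3 spanned 0.193.

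**Figure D1:**
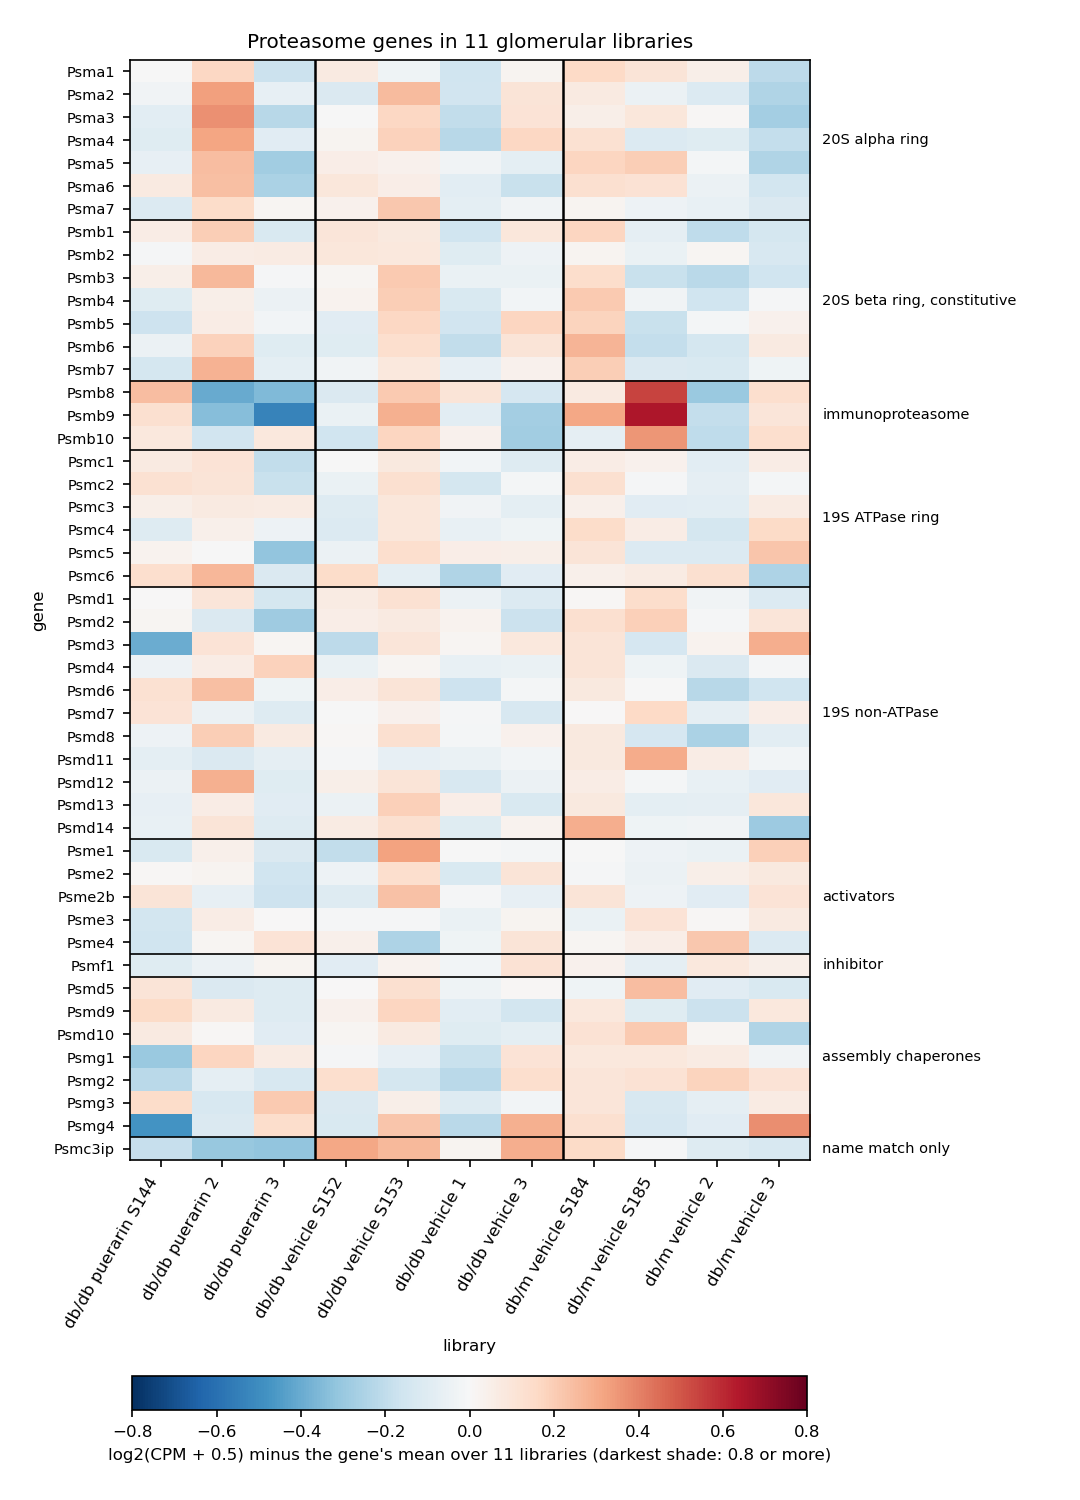
Heat map of the 48 proteasome genes (rows, grouped by role) in 11 libraries (columns, by group), coloured by log2(CPM + 0.5) minus the gene's mean over the libraries. Most constitutive subunits stay pale, while Psmb8, Psmb9 and Psmb10 are darkest red in db/m vehicle S185 and blue in db/db puerarin 2.

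The 3 comparisons asked whether proteasome genes differ between puerarin-treated and vehicle-treated diabetic glomeruli, between puerarin-treated diabetic and non-diabetic glomeruli, and between diabetic and non-diabetic glomeruli on vehicle. No proteasome gene passed the test in any of them (edgeR's quasi-likelihood test, Benjamini-Hochberg adjusted p under 0.05 over 13734 genes), and none passed with DESeq2 or limma. For puerarin against vehicle in db/db mice, 0% of all genes passed. For db/db puerarin against db/m vehicle it was 0.182% and for db/db vehicle against db/m vehicle 0.0437%. At an unadjusted p under 0.05, 1 of 48 was found for puerarin against vehicle (4.21% of all genes), 3 of 48 for db/db puerarin against db/m vehicle (10.3%) and 0 of 48 for db/db vehicle against db/m vehicle (10.3%). The comparisons share libraries, so they are not independent of each other. In bulk RNA, fewer cells of a type and less RNA per cell cannot be told apart.

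The fold changes of the 48 were small. For puerarin against vehicle in db/db mice, 46 of 48 had a log2 fold change smaller than 0.2 in size (73.4% of all genes), with a median of 0.012 (-0.020 over all genes). For db/db puerarin against db/m vehicle, 39 of 48 did (68.8% of all genes), with a median of -0.011 (-0.0091 over all genes). For db/db vehicle against db/m vehicle, 46 of 48 did (69.5% of all genes), with a median of -0.015 (0.015 over all genes). The 95% confidence intervals give the sizes these data still allow. Without db/db puerarin 2 and 3, the medians over the 48 were -0.057 for puerarin against vehicle (-0.0026 over all genes) and -0.067 for db/db puerarin against db/m vehicle (-0.013 over all genes), and 21 and 19 of the 48 values changed sign. The intervals lay wholly within 0.5 log2 units of no change for 45 of 48 genes in the first comparison, 43 in the second and 46 in the third.

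**Figure D2:**
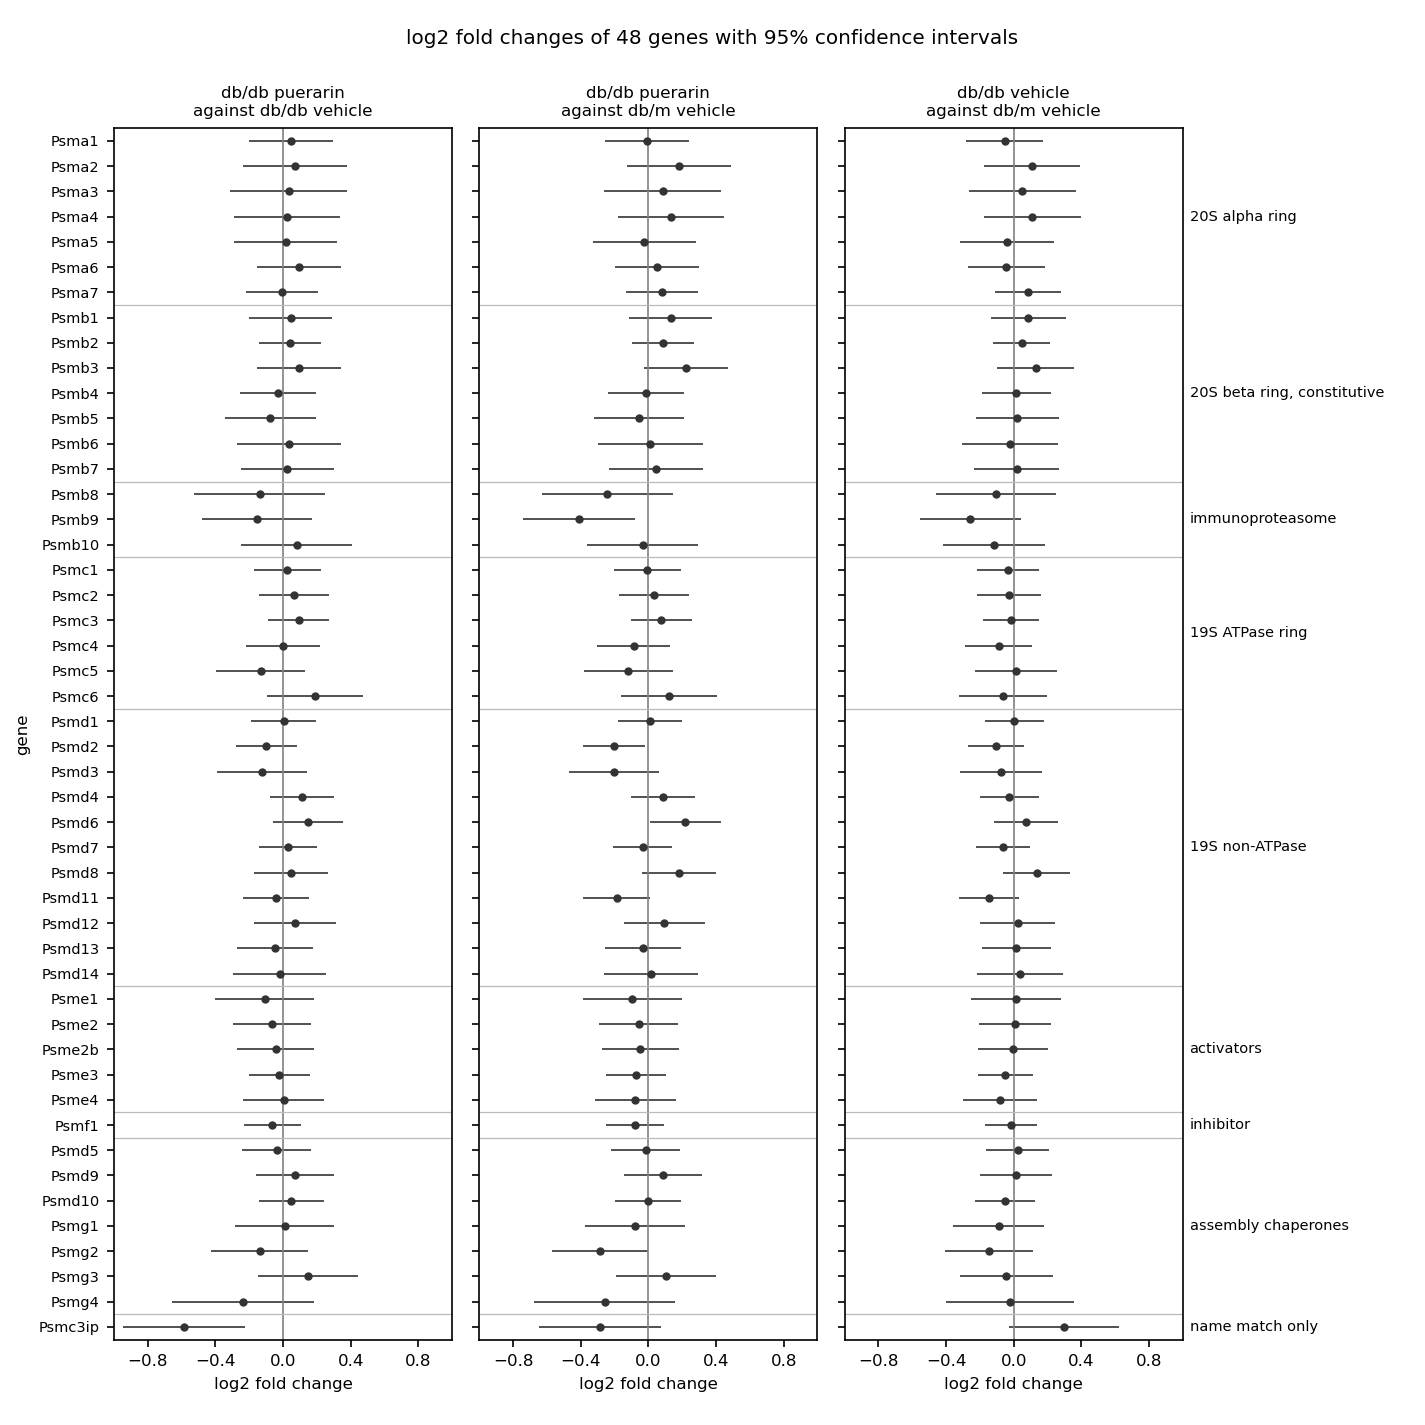
log2 fold changes (points) with 95% confidence intervals (lines) of the 48 genes, by role, in the 3 comparisons. Most points sit within 0.2 of the zero line, and the intervals of Psmb9, Psmc3ip and Psmg4 are among the widest.

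The 20S alpha ring, which forms the gate of the barrel, had 0 of 7 genes past the test in each comparison. Its median log2 fold change was 0.034 for puerarin against vehicle, 0.080 for db/db puerarin against db/m vehicle and 0.052 for db/db vehicle against db/m vehicle. Both medians with puerarin turned negative without db/db puerarin 2 and 3, at -0.15 and -0.089. Values of a gene are given in the library order S144, 2 and 3 for db/db puerarin, S152, S153, 1 and 3 for db/db vehicle, and S184, S185, 2 and 3 for db/m vehicle. Psma7 was at 139.7, 167 and 151.8 CPM in db/db puerarin, 154, 175, 142 and 148 CPM in db/db vehicle and 152.6, 146, 145 and 139 CPM in db/m vehicle. Psma2 was at 46.8, 60.3 and 45.7 CPM in db/db puerarin, 44.0, 57.2, 43.0 and 51.5 CPM in db/db vehicle and 50.4, 46.2, 44.4 and 40.5 CPM in db/m vehicle. In both genes db/db puerarin 2 and db/db vehicle S153 were the highest libraries, and the groups overlapped. The log2 fold change of Psma2 was 0.071 ± 0.14 (SE, adjusted p = 0.979) for puerarin against vehicle and 0.18 ± 0.14 (SE, adjusted p = 0.760) for db/db puerarin against db/m vehicle, and these were -0.12 and -0.0043 without db/db puerarin 2 and 3. Psma3 had the widest spread of the ring, from 83.2 CPM in db/m vehicle 3 to 130.0 CPM in db/db puerarin 2. As a ring, the mean level was highest in db/db puerarin 2 (0.26 log2 units above the mean over 11 libraries) and lowest in db/m vehicle 3 (-0.20).

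Among the constitutive beta subunits, again 0 of 7 passed, and the median log2 fold changes were 0.034 for puerarin against vehicle, 0.045 for db/db puerarin against db/m vehicle and 0.021 for db/db vehicle against db/m vehicle. Here too the medians with puerarin turned negative without db/db puerarin 2 and 3, at -0.057 and -0.079. The catalytic Psmb5, which carries the chymotrypsin-like site, was at 71.5, 83.7 and 79.1 CPM in db/db puerarin, 75.1, 90.1, 72.1 and 90.4 CPM in db/db vehicle and 90.9, 70.9, 79.1 and 82.2 CPM in db/m vehicle. Psmb6, of the caspase-like site, was at 79.7, 93.3 and 76.9 CPM in db/db puerarin, 76.8, 90.1, 71.6 and 88.4 CPM in db/db vehicle and 99.4, 71.8, 74.6 and 86.3 CPM in db/m vehicle. Psmb7, of the trypsin-like site, was at 67.3, 90.1 and 70.3 CPM in db/db puerarin, 72.8, 78.7, 70.9 and 76.0 CPM in db/db vehicle and 85.3, 68.4, 68.3 and 72.4 CPM in db/m vehicle. In each of the 3 genes the groups overlapped and no group stood apart. The log2 fold change of Psmb5 was -0.076 ± 0.12 (SE, adjusted p = 0.976) for puerarin against vehicle and 0.021 ± 0.11 (SE, adjusted p = 0.968) for db/db vehicle against db/m vehicle, and those of Psmb6 and Psmb7 ran from -0.022 to 0.045 over the 3 comparisons. Those for puerarin against vehicle were -0.18 for Psmb5, -0.057 for Psmb6 and -0.17 for Psmb7 without db/db puerarin 2 and 3.

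Psmb3, a structural beta subunit without a catalytic site, had the highest fold change of the ring. It was at 75.3, 87.4 and 72.6 CPM in db/db puerarin, 73.6, 84.6, 70.2 and 70.2 CPM in db/db vehicle and 80.5, 64.3, 62.8 and 65.4 CPM in db/m vehicle. db/m vehicle S184 stood above the other 3 db/m libraries, and the groups overlapped. Its log2 fold change was 0.22 ± 0.11 (SE, adjusted p = 0.548) for db/db puerarin against db/m vehicle, and the difference in mean log2 CPM was 0.064 for S-number libraries and 0.31 for group-tag libraries. Without db/db puerarin 2 and 3 the fold change was 0.075.

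**Figure D3:**
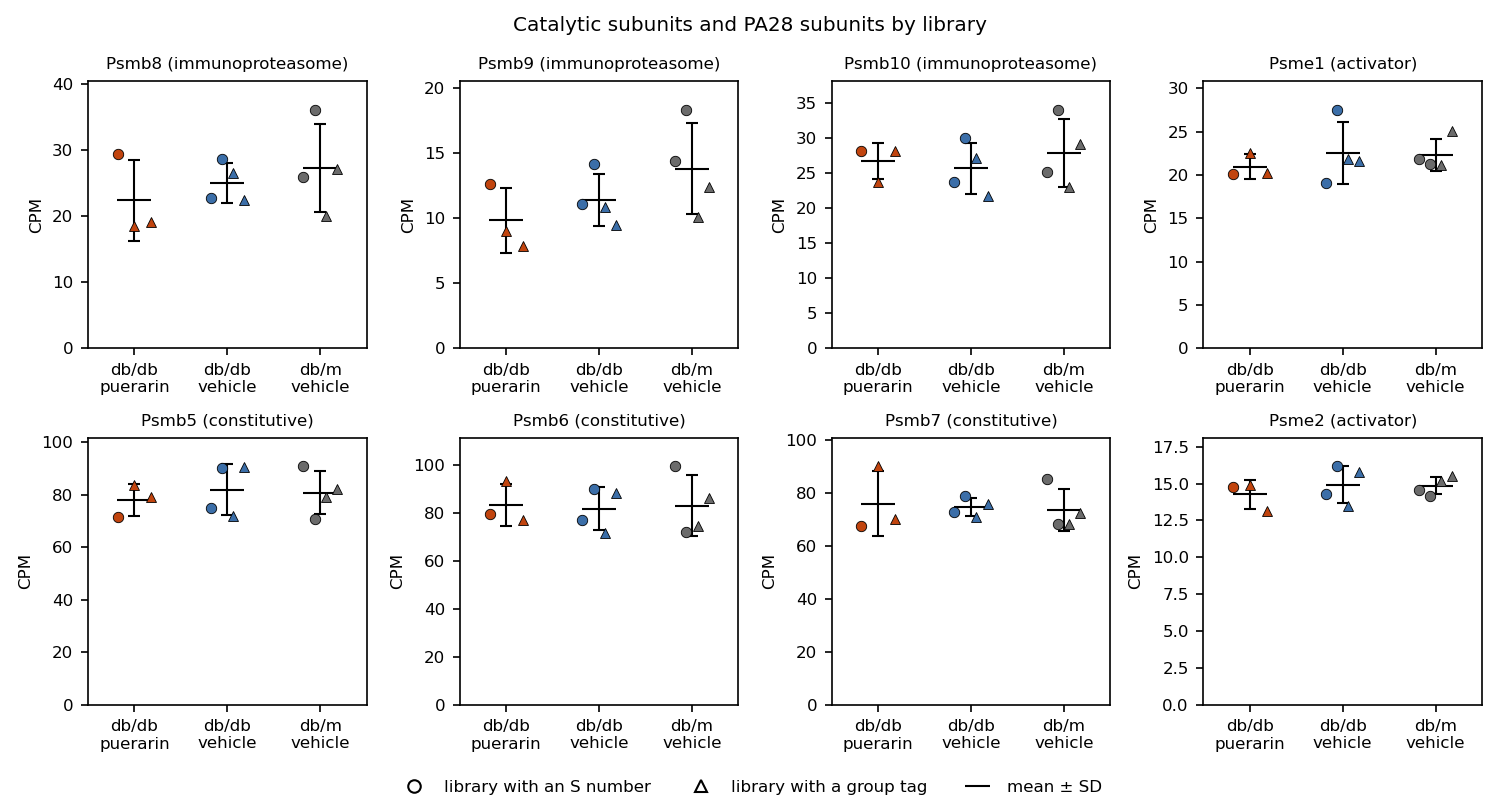
CPM of the 3 immunoproteasome subunits, the constitutive subunits they replace, Psme1 and Psme2, by group. Circles are S-number libraries, triangles group-tag libraries, bars the mean ± SD. The groups overlap in every panel, and db/m vehicle S185 is the highest circle for Psmb8 (36.0 CPM), Psmb9 (18.3 CPM) and Psmb10 (33.9 CPM).

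Of the barrel genes, the immunoproteasome subunit Psmb9 had the lowest fold change in all 3 comparisons, without passing the test. Psmb9 averaged 9.82 ± 2.51 CPM in db/db puerarin (SD, n = 3), 11.4 ± 1.98 CPM in db/db vehicle (SD, n = 4) and 13.8 ± 3.49 CPM in db/m vehicle (SD, n = 4). By library it was at 12.6, 9.01 and 7.82 CPM in db/db puerarin, 11.1, 14.2, 10.8 and 9.45 CPM in db/db vehicle and 14.4, 18.3, 10.1 and 12.4 CPM in db/m vehicle. The lowest values were in db/db puerarin 2 and 3 and the highest in db/m vehicle S185, and the groups overlapped. Set against db/m vehicle, db/db puerarin had a log2 fold change of -0.41 ± 0.15 (SE, adjusted p = 0.357), with an unadjusted p of 0.0196 and a 95% interval of -0.74 to -0.081. Among S-number libraries the difference in mean log2 CPM was -0.35 and among group-tag libraries -0.39. The fold change was -0.15 ± 0.15 (SE, adjusted p = 0.967) for puerarin against vehicle and -0.26 ± 0.14 (SE, adjusted p = 0.572) for db/db vehicle against db/m vehicle. Over 23 other settings, the value for db/db puerarin against db/m vehicle ran from -0.49 to -0.29 (adjusted p 0.227 to 0.841), and it was -0.295 without db/db puerarin 2 and 3. In that setting the value for puerarin against vehicle was -0.038.

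Psmb8 was at 29.4, 18.5 and 19.2 CPM in db/db puerarin, 22.7, 28.6, 26.6 and 22.4 CPM in db/db vehicle and 26.0, 36.0, 20.0 and 27.1 CPM in db/m vehicle. Again db/m vehicle S185 was highest, and db/db puerarin S144, at 29.4 CPM, stood above the other 2 puerarin libraries. Its log2 fold change was -0.24 ± 0.17 (SE, adjusted p = 0.731) for db/db puerarin against db/m vehicle and -0.14 ± 0.17 (SE, adjusted p = 0.967) for puerarin against vehicle. It turned with the choice of libraries: without db/db puerarin 2 and 3 these were 0.021 and 0.13. Psmb10 was at 28.1, 23.7 and 28.1 CPM in db/db puerarin, 23.7, 29.9, 27.1 and 21.8 CPM in db/db vehicle and 25.2, 33.9, 22.9 and 29.1 CPM in db/m vehicle. Its log2 fold changes were 0.082 for puerarin against vehicle, -0.034 for db/db puerarin against db/m vehicle and -0.12 for db/db vehicle against db/m vehicle, all smaller than their standard errors of 0.15, 0.15 and 0.14. The values with puerarin were 0.074 and -0.04 without db/db puerarin 2 and 3.

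The balance of the immunoproteasome and the constitutive barrel was followed as the log2 ratio of counts within each library, which does not depend on library size. The ratio of Psmb9 to Psmb6 was -2.66, -3.37 and -3.30 in db/db puerarin, -2.79, -2.67, -2.73 and -3.23 in db/db vehicle and -2.79, -1.97, -2.89 and -2.80 in db/m vehicle. It was lowest in db/db puerarin 2 and 3 and db/db vehicle 3, and db/m vehicle S185 stood above all other libraries. The ratio of Psmb8 to Psmb5 was -1.28, -2.17 and -2.04 in db/db puerarin, -1.73, -1.66, -1.44 and -2.01 in db/db vehicle and -1.81, -0.98, -1.99 and -1.60 in db/m vehicle. The ratio of Psmb10 to Psmb7 was -1.26, -1.93 and -1.32 in db/db puerarin, -1.62, -1.40, -1.39 and -1.80 in db/db vehicle and -1.76, -1.01, -1.57 and -1.32 in db/m vehicle. In all 3 ratios db/m vehicle S185 was the highest library, and the groups overlapped.

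No ratio passed the exact two-sided permutation test between groups, in which the adjusted p over the 9 tests was 0.8 throughout. The largest difference, Psmb9 to Psmb6 in db/db puerarin minus db/m vehicle, was -0.49. It ran from -0.72 to -0.041 over 11 other settings, and the value nearest 0 was that without db/db puerarin 2 and 3. The mean was -3.11 ± 0.39 in db/db puerarin (SD, n = 3) and -2.62 ± 0.43 in db/m vehicle (SD, n = 4), and the exact permutation p was 0.229. The difference was -0.27 for S-number libraries and -0.49 for group-tag libraries. Psmb9 to Psmb6 differed by -0.26 in db/db puerarin minus db/db vehicle (exact permutation p = 0.343) and by -0.24 in db/db vehicle minus db/m vehicle (exact permutation p = 0.543). The two-sided p was counted by doubling the share of permutations in the smaller tail. Counted so, the smallest p for these group sizes is 0.0286 for 4 against 4 libraries and 0.0571 for 3 against 4. By this way of counting, a comparison with puerarin could not pass 0.05 even before adjustment. After adjustment over the 9 tests, db/db vehicle against db/m vehicle could not pass 0.05 either. The test thus cannot decide whether the ratios differ, and the differences are given as sizes only. The difference of puerarin minus vehicle in Psmb8 to Psmb5 had opposite signs in the name forms: it was 0.41 for S-number libraries and -0.38 for group-tag libraries. With S144 as the 1 puerarin library, the differences of puerarin minus vehicle were all positive, at 0.425 for Psmb8 to Psmb5, 0.197 for Psmb9 to Psmb6 and 0.291 for Psmb10 to Psmb7. Those of db/db puerarin minus db/m vehicle were then 0.308, -0.041 and 0.156 in the same order, and a group of 1 library allows no test.

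**Figure D4:**
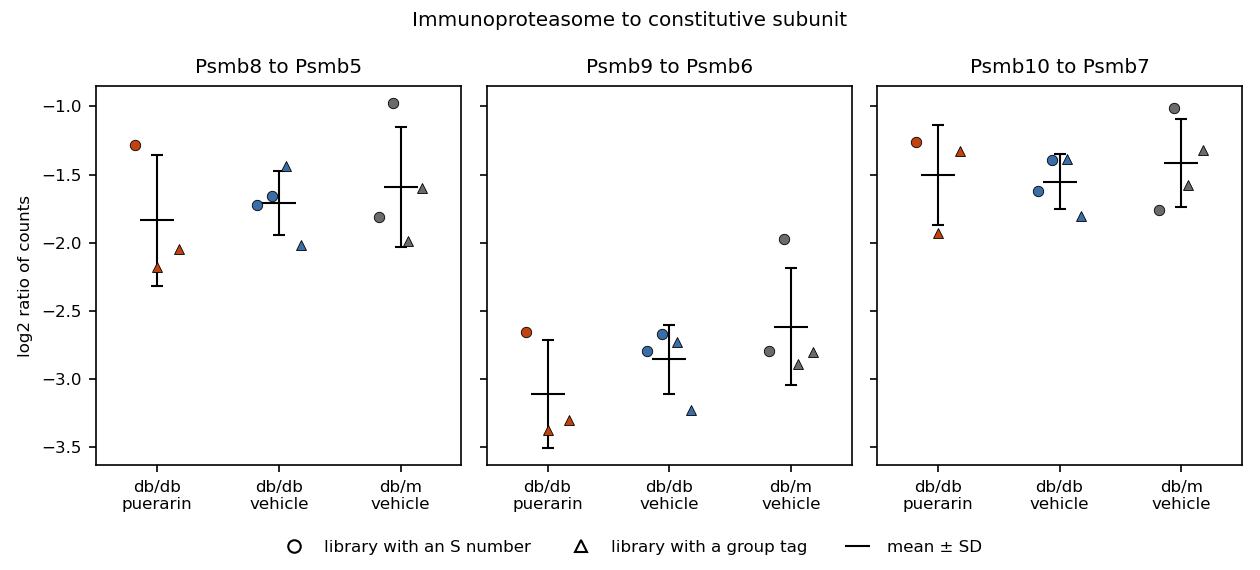
log2 ratio of the counts of each immunoproteasome subunit to those of the constitutive subunit it replaces, by library and group, with mean ± SD. Every point lies below 0, and db/m vehicle S185 is highest in each panel.

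Psmb9 was the single gene of the 48 to pass a test, and that was in the term for the form of the library's name. Group-tag libraries differed from S-number libraries by a log2 value of -0.47 ± 0.12 (SE, edgeR adjusted p = 0.0404). Over all genes, 6.97% passed for this term. Psmb8 differed by -0.34 (adjusted p = 0.16) and Psmb10 by -0.15 (adjusted p = 0.451). Of the 48 genes, 9 had a positive value for this term, against 46.3% of all genes.

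Markers of other cell types moved between the same libraries. A list's level is the mean over its genes of log2(CPM + 0.5) minus each gene's mean over the 11 libraries. The level of the 3 immunoproteasome genes was 0.15, -0.30 and -0.27 in db/db puerarin, -0.11, 0.22, 0.019 and -0.23 in db/db vehicle and 0.10, 0.51, -0.23 and 0.12 in db/m vehicle. The level of the 10 glomerular endothelial markers was 0.35, -0.22 and -0.18 in db/db puerarin, 0.18, 0.13, 0.15 and -0.63 in db/db vehicle and 0.064, 0.38, -0.35 and 0.13 in db/m vehicle. Both were high in db/db puerarin S144 and db/m vehicle S185 and low in db/db puerarin 2 and 3, db/db vehicle 3 and db/m vehicle 2. In db/db vehicle S152 they had opposite signs, at -0.11 and 0.18. The level of the 10 podocyte markers was 0.23, -0.092 and -0.18 in db/db puerarin, 0.064, 0.0070, -0.074 and -0.33 in db/db vehicle and 0.014, 0.18, 0.28 and -0.10 in db/m vehicle. The podocyte list thus shared much of this pattern, but was highest in db/m vehicle 2. The summed endothelial markers ran from 5783 to 8399 CPM in db/db puerarin, 4274 to 7378 CPM in db/db vehicle and 5214 to 8529 CPM in db/m vehicle. Tubule markers pooled (30 genes) were lowest in db/db puerarin S144 (-1.31) and db/m vehicle S185 (-0.87) and highest in db/db vehicle 3 (1.03). The loop and distal tubule list and the collecting duct list followed that order. The 10 proximal tubule markers did not: they were lowest in db/db vehicle 1 (-1.21) and highest in db/m vehicle S184 (1.37). In db/m vehicle S185 they were at 0.073. The 10 mesangial markers ranged in level from -0.018 to 0.32 in db/db puerarin, -0.41 to 0.50 in db/db vehicle and -0.19 to 0.35 in db/m vehicle, and were highest in db/db vehicle 1. The 5 erythroid markers measured of 7 ranged from -0.57 to 0.096 in db/db puerarin, 0.0055 to 0.45 in db/db vehicle and -0.82 to 0.47 in db/m vehicle, with db/m vehicle S185 highest. No gene of these last 2 lists passed the test in the 3 comparisons. The part of these cells in the immunoproteasome values was not tested.

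Leukocytes carry the immunoproteasome, so markers of leukocytes are given beside it. All 15 myeloid markers were measured, and their summed level was 142 to 251 CPM in db/db puerarin, 156 to 949 CPM in db/db vehicle and 87.5 to 243 CPM in db/m vehicle. The high value came from db/db vehicle 1, in which C1qa, a complement gene of macrophages, was at 93.3 CPM. There the 3 immunoproteasome genes were near their mean (0.019 log2 units above it). The B cell gene Cd79a ranged over 0.735 to 1.77 CPM in db/db puerarin, 0.700 to 2.58 CPM in db/db vehicle and 1.28 to 3.25 CPM in db/m vehicle. Ms4a1, another B cell gene, ranged over 1.10 to 1.67 CPM in db/db puerarin, 1.09 to 1.99 CPM in db/db vehicle and 1.01 to 2.87 CPM in db/m vehicle. Both were highest in db/m vehicle S185, as were the 3 immunoproteasome genes. Whether leukocytes contributed to that library's values was not tested.

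**Figure D5:**
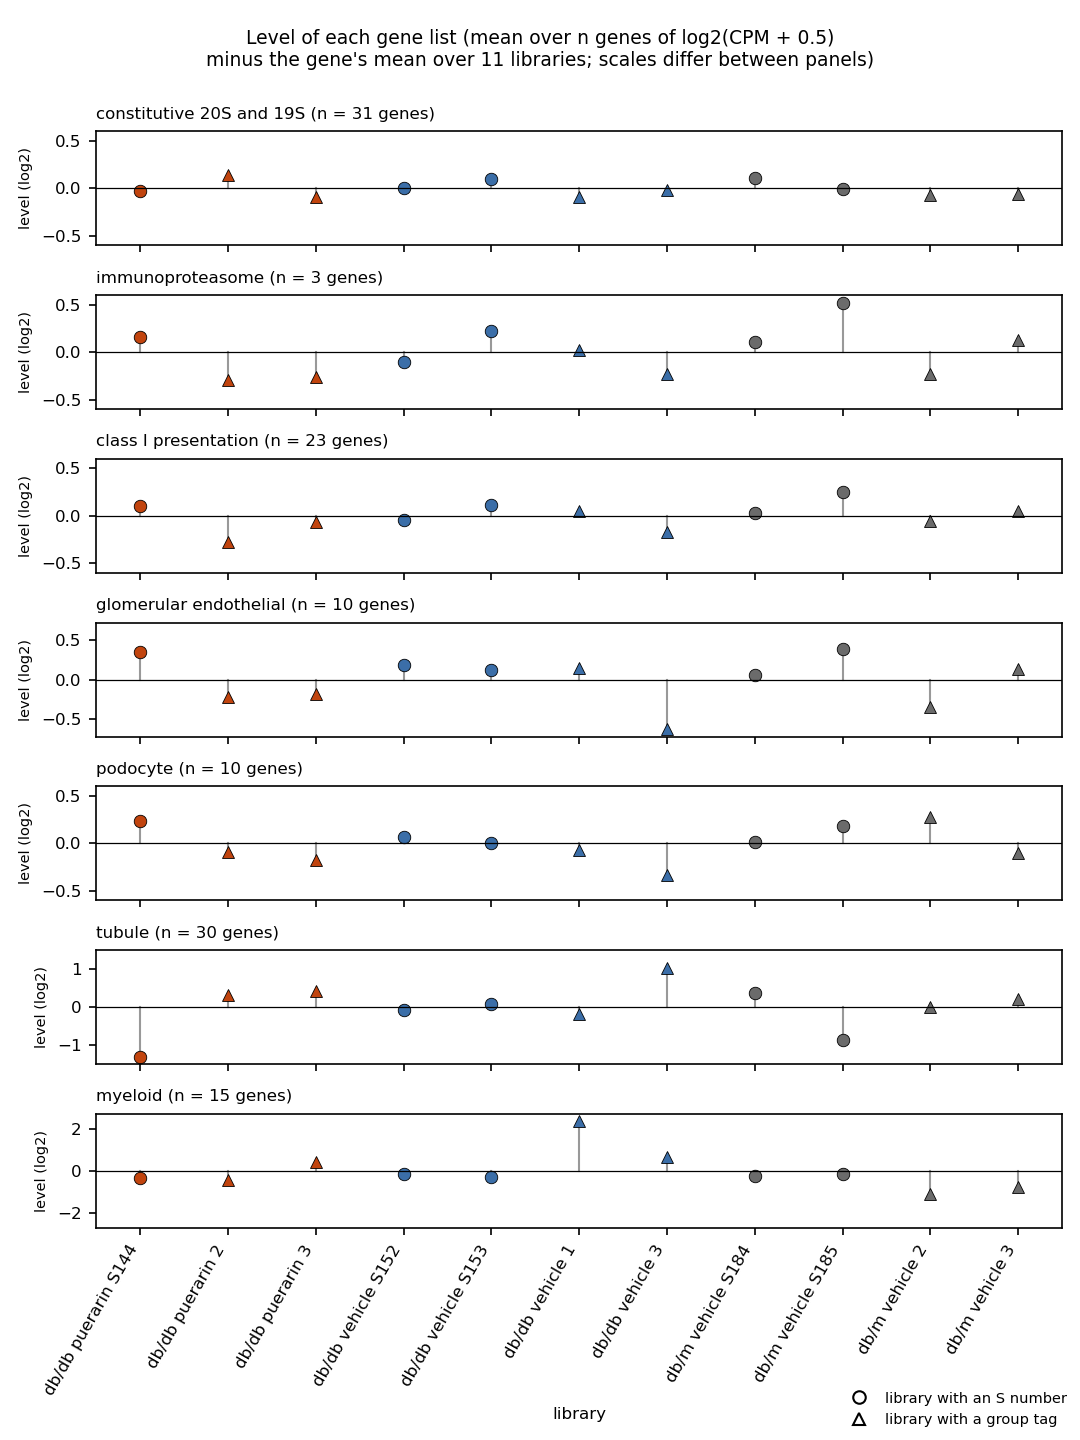
Level of each gene list in 11 libraries, as the mean over its genes of log2(CPM + 0.5) minus the gene's mean over the libraries. The 31 constitutive 20S and 19S genes stay between -0.09 and 0.14, while the immunoproteasome and endothelial panels are both highest in db/m vehicle S185.

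Psmb8 and Psmb9 lie next to the peptide transporter genes Tap1 and Tap2 in the histocompatibility region. In the table's coordinates (mm10), Psmb9 is at chr17:34182098-34187330 on the minus strand, Tap1 at chr17:34187555-34197225, Psmb8 at chr17:34198194-34201454 and Tap2 at chr17:34204478-34216321, all 3 on the plus strand. Psmb10 is at chr8:105935727-105938392. Tap1 was at 43.0, 29.3 and 32.9 CPM in db/db puerarin, 37.4, 55.8, 47.3 and 35.8 CPM in db/db vehicle and 48.1, 63.8, 45.5 and 57.6 CPM in db/m vehicle. As with Psmb9, db/m vehicle S185 was highest and db/db puerarin 2 and 3 were lowest. The log2 fold change of Tap1 was -0.59 ± 0.18 (SE, adjusted p = 0.263) for db/db puerarin against db/m vehicle, where its groups did not overlap, and -0.30 ± 0.18 (SE, adjusted p = 0.967) for puerarin against vehicle. These were -0.37 and -0.086 without db/db puerarin 2 and 3, and Tap1 did not pass the test.

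In the 19S cap, the ATPase ring that unfolds substrates had 0 of 6 genes past the test, with medians of 0.044, 0.013 and -0.031 for puerarin against vehicle, db/db puerarin against db/m vehicle and db/db vehicle against db/m vehicle. The medians with puerarin were 0.071 and 0.05 without db/db puerarin 2 and 3. Psmc6 was at 33.4, 36.6 and 27.9 CPM in db/db puerarin, 33.7, 28.7, 25.6 and 28.4 CPM in db/db vehicle and 31.2, 31.8, 33.2 and 25.5 CPM in db/m vehicle. It had the highest fold change of the ring for puerarin against vehicle, 0.19 ± 0.13 (SE, adjusted p = 0.967), and 0.14 without db/db puerarin 2 and 3. Psmc5 was at 70.8, 69.2 and 55.7 CPM in db/db puerarin, 67.1, 76.1, 71.9 and 71.6 CPM in db/db vehicle and 74.5, 64.1, 64.4 and 80.9 CPM in db/m vehicle, and its fold change in that comparison was -0.13 ± 0.12 (SE, adjusted p = 0.967), the lowest of the ring. It was 0.017 without db/db puerarin 2 and 3. Psmc5 was lowest in db/db puerarin 3 and highest in db/m vehicle 3, and groups overlapped in both genes. Psmc3 was at 108, 109.7 and 109 CPM in db/db puerarin, 97.1, 111, 102 and 99.0 CPM in db/db vehicle and 108, 98.2, 98.6 and 109.5 CPM in db/m vehicle, which kept all 11 libraries within 97.1 and 111 CPM.

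None of the other 11 cap subunits passed, and their median log2 fold changes were 0.0032 for puerarin against vehicle, 0.0077 for db/db puerarin against db/m vehicle and 0.0045 for db/db vehicle against db/m vehicle. The medians with puerarin were -0.071 and -0.069 without db/db puerarin 2 and 3. Psmd2, a scaffold at the base of the cap that docks ubiquitin shuttle proteins, was at 239.7, 219 and 195 CPM in db/db puerarin, 247, 249, 242 and 210.3 CPM in db/db vehicle and 259, 271, 236 and 253 CPM in db/m vehicle. Its log2 fold change was -0.20 ± 0.082 (SE, adjusted p = 0.417) for db/db puerarin against db/m vehicle, with an unadjusted p of 0.0314. In mean log2 CPM it differed by -0.14 among S-number libraries and -0.24 among group-tag libraries, and the fold change was -0.13 without db/db puerarin 2 and 3. Psmd6, a lid subunit, was at 45.1, 48.8 and 40.3 CPM in db/db puerarin, 43.0, 44.5, 36.8 and 40.9 CPM in db/db vehicle and 43.7, 41.2, 35.4 and 36.9 CPM in db/m vehicle. Its fold change in the same comparison was 0.22 ± 0.094 (SE, adjusted p = 0.457), with an unadjusted p of 0.041, and 0.12 without db/db puerarin 2 and 3. The groups overlapped in both genes.

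Psmd11, the lid subunit whose raised expression increases proteasome activity in human stem cells, was at 24.5, 23.8 and 24.6 CPM in db/db puerarin, 25.7, 24.8, 24.9 and 25.5 CPM in db/db vehicle and 27.3, 31.9, 26.9 and 25.5 CPM in db/m vehicle. All 3 puerarin libraries lay below all vehicle libraries of both genotypes, by a narrow margin: the highest puerarin value was 24.6 CPM and the lowest db/db vehicle value 24.8 CPM. The log2 fold change was -0.042 ± 0.088 (SE, adjusted p = 0.982) for puerarin against vehicle and -0.19 ± 0.088 (SE, adjusted p = 0.510) for db/db puerarin against db/m vehicle, and neither passed the test. They were -0.071 and -0.21 without db/db puerarin 2 and 3. For puerarin against vehicle, 2 of the 48 genes had groups that did not overlap, both lower (3.23% of all genes in either direction, 1.72% lower), and these were Psmd11 and Psmc3ip. With DESeq2 size factors, without TMM factors or with the highest transcript of each gene, the count was 1. For db/db puerarin against db/m vehicle there were 3, all lower (7.65% in either direction, 3.92% lower): Psmd11, Psmc3ip and Psmg2. For db/db vehicle against db/m vehicle there were 0 (4.96%).

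Psmd8, a lid subunit, was at 76.7, 90.6 and 82.9 CPM in db/db puerarin, 79.4, 86.3, 78.0 and 80.8 CPM in db/db vehicle and 83.1, 71.9, 66.1 and 74.4 CPM in db/m vehicle. Its fold change was 0.18 ± 0.10 (SE, adjusted p = 0.596) for db/db puerarin against db/m vehicle and 0.14 ± 0.09 (SE, adjusted p = 0.655) for db/db vehicle against db/m vehicle, and the value for db/db puerarin against db/m vehicle was 0.023 without db/db puerarin 2 and 3. Psmd4, a ubiquitin receptor of the cap, was at 104, 112 and 122 CPM in db/db puerarin, 103, 108, 103 and 103 CPM in db/db vehicle and 115, 104, 98.9 and 106 CPM in db/m vehicle, and its fold change was 0.11 ± 0.085 (SE, adjusted p = 0.967) for puerarin against vehicle and -0.017 without db/db puerarin 2 and 3. Groups overlapped in both, and db/db puerarin 3 was the highest library for Psmd4. Psmd14, the deubiquitinase, had fold changes of -0.021, 0.017 and 0.038 for puerarin against vehicle, db/db puerarin against db/m vehicle and db/db vehicle against db/m vehicle, and Psmd1, the second scaffold of the base, of 0.0032, 0.0077 and 0.0045. With S144 as the 1 puerarin library, the fold changes for puerarin against vehicle were -0.18 for Psmd14 and -0.067 for Psmd1. Psmd3 had the widest spread of the cap, from 72.5 CPM in db/db puerarin S144 to 117 CPM in db/m vehicle 3. The 31 constitutive barrel and cap genes together summed to 2160 to 2516 CPM in db/db puerarin, 2187 to 2489 CPM in db/db vehicle and 2185 to 2483 CPM in db/m vehicle.

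The activator genes had 0 of 5 past the test. Psme1 and Psme2 encode the subunits of PA28, an interferon-inducible ring that opens the barrel for peptides, and lie near each other at chr14:55578493-55581527 and chr14:55587439-55591101. Psme1 was at 20.1, 22.6 and 20.2 CPM in db/db puerarin, 19.1, 27.5, 21.9 and 21.7 CPM in db/db vehicle and 21.9, 21.3, 21.1 and 25.1 CPM in db/m vehicle. db/db vehicle S153 was highest and db/db vehicle S152 lowest, so 1 group held both ends. The fold change of Psme1 was -0.11 ± 0.13 (SE, adjusted p = 0.967) for puerarin against vehicle and 0.013 ± 0.12 (SE, adjusted p = 0.982) for db/db vehicle against db/m vehicle, and -0.14 for puerarin against vehicle without db/db puerarin 2 and 3. Psme3 was at 46.1 ± 3.42 CPM in db/db puerarin (SD, n = 3), 46.5 ± 0.943 CPM in db/db vehicle and 48.2 ± 2.45 CPM in db/m vehicle (SD, n = 4 each).

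Psme2 and Psme2b cannot be separated with certainty in short reads. Psme2b (chr11:48945351-48946410) is annotated with 1 exon, and Psme2 with 11. Their coding sequences of 720 bases (GENCODE M21 annotation of GRCm38) are 99.3% identical, with 5 differences and a longest shared run of 311 bases. The stretch of coding bases 424 to 543, which holds 3 of the 5 differences, shows how few bases tell them apart, with the differing bases in capitals:
Psme2: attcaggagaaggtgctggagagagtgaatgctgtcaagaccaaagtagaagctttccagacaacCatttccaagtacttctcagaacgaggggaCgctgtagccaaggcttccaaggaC
Psme2b: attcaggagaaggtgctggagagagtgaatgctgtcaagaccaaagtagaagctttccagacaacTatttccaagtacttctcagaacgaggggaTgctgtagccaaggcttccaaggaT
By contrast, each immunoproteasome subunit shares 64.8% to 69% of its coding bases with the constitutive subunit it replaces, and the longest shared run was 18 bases.

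In the table Psme2b held most of the reads of the pair. It averaged 94.1 RPKM and Psme2 13.6 RPKM. Psme2 was at 14.8, 14.9 and 13.1 CPM in db/db puerarin, 14.3, 16.2, 13.5 and 15.8 CPM in db/db vehicle and 14.6, 14.2, 15.2 and 15.5 CPM in db/m vehicle. Psme2b was at 66.5, 59.1 and 55.2 CPM in db/db puerarin, 57.6, 73.0, 61.5 and 59.2 CPM in db/db vehicle and 66.5, 60.3, 58.2 and 66.8 CPM in db/m vehicle. The sources used here do not say how the counting divided reads between the copies, and neither level can be read as that of its locus alone. Summed, the pair was at 81.3, 74.1 and 68.3 CPM in db/db puerarin, 71.9, 89.2, 75.0 and 75.0 CPM in db/db vehicle and 81.1, 74.5, 73.4 and 82.3 CPM in db/m vehicle, with a log2 fold change of -0.047 for puerarin against vehicle and -0.0022 for db/db vehicle against db/m vehicle. The sum was tried after seeing the data.

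The inhibitor Psmf1 ranged only from 39.6 to 45.9 CPM over the 11 libraries. Of the 7 assembly chaperones 0 passed. Psmg2, which pairs with Psmg1 to build the alpha ring, was at 7.31, 8.10 and 7.79 CPM in db/db puerarin, 9.44, 7.70, 7.31 and 9.45 CPM in db/db vehicle and 9.19, 9.31, 9.76 and 9.28 CPM in db/m vehicle. All puerarin libraries lay below all db/m libraries, while db/db vehicle overlapped with both. The fold change was -0.29 ± 0.13 (SE, adjusted p = 0.487) for db/db puerarin against db/m vehicle, with a difference of -0.32 among S-number libraries and -0.25 among group-tag libraries, and it was -0.34 without db/db puerarin 2 and 3. Psmg4, of the second chaperone pair, was at 11.2, 14.6 and 17.5 CPM in db/db puerarin, 14.5, 18.6, 13.5 and 19.4 CPM in db/db vehicle and 17.3, 14.4, 14.8 and 20.6 CPM in db/m vehicle, and db/db puerarin S144 was its lowest library. The fold change of Psmg4 was -0.24 ± 0.19 (SE, adjusted p = 0.967) for puerarin against vehicle, and -0.50 without db/db puerarin 2 and 3. The 19S chaperones Psmd5, Psmd9 and Psmd10 had fold changes of -0.039, 0.07 and 0.049 in that comparison, and 0.023, 0.11 and 0.0098 without db/db puerarin 2 and 3.

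Psmc3ip, the match by name only, had the largest fold change and lay far below the proteasome genes in level. It was at 1.70, 1.53 and 1.51 CPM in db/db puerarin, 2.60, 2.49, 2.04 and 2.55 CPM in db/db vehicle and 2.29, 1.99, 1.83 and 1.79 CPM in db/m vehicle, on 54 to 102 reads per library, a count that gives a relative counting error of 13.6% in the lowest library. The puerarin libraries lay below all libraries of the other groups. The log2 fold change was -0.58 ± 0.16 (SE, adjusted p = 0.967) for puerarin against vehicle, with an unadjusted p of 0.00464 and a 95% interval of -0.94 to -0.22. It was -0.29 ± 0.16 (SE, adjusted p = 0.618) for db/db puerarin against db/m vehicle. In mean log2(CPM + 0.5), puerarin minus vehicle was -0.47 among S-number libraries and -0.46 among group-tag libraries. The added 0.5 shrinks differences at so low a level, so these values and the fold changes are not on 1 scale. Without db/db puerarin 2 and 3 the fold change for puerarin against vehicle was -0.59. Over 23 other settings it ran from -0.64 to -0.46 (adjusted p 0.554 to 1.0).

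Proteasome genes are known to be induced together by Nfe2l1 (NRF1) and, for some, by Nfe2l2 (NRF2), which bind antioxidant response elements. RefSeq promoters (GRCm38.p6) were found for 41 of the 48 genes, as 44 entries, and the 250 bases before the start were searched on both strands. The core TGACNNNGC occurred in 5 of the 44 (11.4%) and in 10.2% of all 32851 promoters. The matches are shown because Psmb5 and Psmb6, both constitutive catalytic genes, are among them, with the core in capitals and neighbouring bases as far as the searched window reaches. The core of Psmb6 ends at the edge of that window and that of Psmd12 begins near it:
Psmb5 (chr14:54618019-54618057, - strand): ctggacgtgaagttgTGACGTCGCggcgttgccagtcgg
Psmb6 (chr11:70525333-70525356, + strand): gcggactaaagagagTGACGGAGC
Psmc6 (chr14:45329582-45329620, + strand): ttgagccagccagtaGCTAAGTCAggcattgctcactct
Psmd12 (chr11:107479278-107479304, + strand): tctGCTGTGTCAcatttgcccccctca
Psmd9 (chr5:123228144-123228182, + strand): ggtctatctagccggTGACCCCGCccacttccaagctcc

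The interferon-stimulated response element (GAAA, then NN, then GAAA) occurred in 3 of the 44 (6.82%) and in 2.98% of all promoters. It was found in these windows, in capitals:
Psmb3 (chr11:97703256-97703295, + strand): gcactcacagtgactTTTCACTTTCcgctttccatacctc
Psmd4 (chr3:95042670-95042709, - strand): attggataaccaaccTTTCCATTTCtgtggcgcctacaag
Psmd9 (chr5:123228016-123228055, + strand): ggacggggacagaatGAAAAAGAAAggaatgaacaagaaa
These letters were not present in the windows of Psmb8, Psmb9 and Psmb10. The 2 motifs do not overlap in Psmd9, which held both. A match of letters is a description of sequence and not of binding.

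Of the genes that work with the proteasome, 23 of 27 listed symbols were measured, and 0 passed in any comparison. For puerarin against vehicle 11 had positive and 12 negative fold changes (median -0.012). For db/db puerarin against db/m vehicle it was 10 and 13 (median -0.026), and for db/db vehicle against db/m vehicle 9 and 14 (median -0.036). Positive fold changes made up 44.7%, 47.7% and 53.5% of all genes in these comparisons, in the same order. Nfe2l2 was at 0.24 ± 0.073 (SE) for db/db vehicle against db/m vehicle (adjusted p = 0.283) and its groups did not overlap. Ubqln2, a shuttle protein that carries ubiquitinated substrates to the cap, was at -0.23 ± 0.077 (SE, adjusted p = 0.336) in that comparison. The medians with puerarin were 0.039 and 0.02 without db/db puerarin 2 and 3. Zfand5, a proteasome-activating zinc finger protein, was at -0.29 ± 0.13 (SE, adjusted p = 0.967) for puerarin against vehicle, and at -0.19 in that setting. Nfe2l1, named here for its role, was at 0.039 ± 0.076 (SE) in that comparison, and at 0.13 without db/db puerarin 2 and 3.

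All 16 genes of ubiquitin and its activation were measured and 0 passed. Usp5, which recycles free ubiquitin chains, was at -0.23 ± 0.073 (SE, adjusted p = 0.289) for db/db puerarin against db/m vehicle, and Uba1, the main ubiquitin-activating enzyme, at -0.25 ± 0.086 (SE, adjusted p = 0.338). These were -0.22 and -0.12 without db/db puerarin 2 and 3. Of 13 NRF2 targets, 12 were measured and 0 passed. For db/db vehicle against db/m vehicle, 9 had positive fold changes (53.5% of all genes) and 3 negative (median 0.21). For puerarin against vehicle, 2 were positive (44.7% of all genes) and 10 negative (median -0.15, and -0.44 without db/db puerarin 2 and 3). The level of this list was lowest in db/db puerarin S144 (-0.30) and highest in db/db vehicle 3 (0.36). The 30 pooled tubule markers were lowest and highest in the same libraries (-1.31 and 1.03). The 10 proximal tubule markers among them were lowest in db/db vehicle 1 (-1.21) and highest in db/m vehicle S184 (1.37). The part of tubule cells in the NRF2 target values was not tested. The heme oxygenase gene Hmox1 was at 0.51 ± 0.18 (SE, adjusted p = 0.368) for db/db vehicle against db/m vehicle. By library Hmox1 was at 15.7, 16.1, 25.8 and 13.5 CPM in db/db vehicle and 11.75 to 13.4 CPM in db/m vehicle. Its highest library, db/db vehicle 1, was also the one with the highest myeloid markers.

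Class I antigen presentation and its interferon regulators, the pathway of the immunoproteasome, had 23 of 25 genes measured and 0 past the test. Fold changes were negative for 15 of 23 for puerarin against vehicle (median -0.034), for 18 of 23 for db/db puerarin against db/m vehicle (median -0.16) and for 18 of 23 for db/db vehicle against db/m vehicle (median -0.097). Of all genes, 44.7%, 47.7% and 53.5% had positive fold changes in these comparisons, in the same order. The counts with puerarin depended on db/db puerarin 2 and 3: with S144 as the 1 puerarin library, 6 of 23 were negative for puerarin against vehicle (median 0.12) and 12 of 23 for db/db puerarin against db/m vehicle (median -0.03). Tapbp, which holds class I molecules at the transporter, was at -0.32 ± 0.11 (SE, adjusted p = 0.342) for db/db puerarin against db/m vehicle. Erap1, which trims peptides, was at -0.35 ± 0.14 (SE, adjusted p = 0.398) in the same comparison. These were -0.09 and -0.21 without db/db puerarin 2 and 3. Ifngr1, a chain of the interferon-gamma receptor, was at -0.42 ± 0.16 (SE, adjusted p = 0.389) for db/db vehicle against db/m vehicle. The level of this list was 0.10, -0.27 and -0.064 in db/db puerarin, -0.04, 0.12, 0.055 and -0.17 in db/db vehicle and 0.027, 0.25, -0.052 and 0.051 in db/m vehicle, again with db/m vehicle S185 highest and db/db puerarin 2 lowest.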

How the data were processed

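Glomerular RNA of 11 libraries in 3 groups was analysed from the deposited table. Per the submitters' processing notes, the authors used BWA and limma with the build mm10. Versions, the counting tool and the use of strand are not given in the sources used here. In the deposited table, counts are whole reads per RefSeq transcript (22320 transcripts). The authors' deposited log2 values differ from log2 counts by 1 offset in each library and were used in an alternative. Columns of values that matched no sample (8) were not used, and 13 blank cells were taken as 0. The labels mention 2 sequencing sites but tie no library to either.

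Counts were summed per symbol to 13734 genes, and 9 of the 48 proteasome genes had more than 1 transcript, so that shared reads may count more than once. CPM values carry TMM factors. Differences and SDs of log2 CPM were taken on log2(CPM + 0.5). The main test was edgeR 4.0.16 in R 4.3.3 (glmQLFit and glmQLFTest, terms for group and form of the library name, count of at least 1 in 3 libraries), two-sided, with Benjamini-Hochberg adjustment over all genes and a threshold of 0.05. DESeq2 1.42.0 and limma 3.58.1 were alternatives, beside other scalings, filters, terms and sets of libraries. Ratios were tested by exact permutation in SciPy 1.17.1. The fit was tested on simulated data. RPKM was computed from the counts of the highest transcript and its length in the table.

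Libraries were grouped by their labels. Since no label says that they came from separate animals, p-values measure only how these samples spread, which may be technical. Values in every library are given for the 6 catalytic subunits, for Psme1 and Psme2, and for the 4 genes with the smallest p in each direction of each comparison. Of each pathway list, genes were taken from the 3 with the smallest p. Genes, lists and alternatives were chosen with earlier results of these data known. A marker on 1 list is not reported here.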

Additional observations from a re-analysis of the deposited data

Results flagged for a closer look

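In 4 of 64 groups of 4 libraries checked over the named genes and ratios, 1 library stood apart from the other 3 by Dixon's criterion. Chance flags about 1 in 20 groups. Psmb3 was at 80.5 CPM in db/m vehicle S184, and the other db/m libraries had 62.8 to 65.4 CPM. Psmd2 was at 210 CPM in db/db vehicle 3, and the other db/db vehicle libraries had 242 to 249 CPM. Psmd4 was at 108 CPM in db/db vehicle S153, and the other db/db vehicle libraries had 103 CPM each. The log2 ratio of Psmb9 to Psmb6 was -1.97 in db/m vehicle S185, and the other db/m libraries had -2.89 to -2.79.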

How the results depend on the processing

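No proteasome gene passed the test in any of 69 alternative fits, and their smallest adjusted p was 0.227, with DESeq2. No ratio passed under any alternative that allowed a test. Groups in these alternatives were no larger than in the main setting, so the exact permutation test could reach no smaller p. It therefore cannot decide there either whether the ratios differ, and no conclusion is drawn from this outcome.

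The number of all genes past the test depended on the processing. For db/db vehicle against db/m vehicle (6) it was 290 with DESeq2, 1 without the name form, 2 in a fit of the 2 groups only, 13 with the authors' log2 values, 2 without db/db puerarin 2 and 3, and 0 without db/m vehicle S184 and S185. For db/db puerarin against db/m vehicle (25) it was 297 with DESeq2, 5 without the name form, 5 in a fit of the 2 groups only, 0 without db/db puerarin 2 and 3, and 0 without db/m vehicle S184 and S185. For puerarin against vehicle in db/db mice (0 with edgeR, 578 at an unadjusted p under 0.05) it was 15 with DESeq2. Leaving out 1 library at a time gave 0 to 82, 0 to 74 and 0 to 5 in these 3 comparisons, and the 82 and 74 came without db/db vehicle 1. The cause was not tested.

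With the replicate number as a block, 56 genes passed for db/db vehicle against db/m vehicle, 49 for db/db puerarin against db/m vehicle and 0 for puerarin against vehicle, and 0 proteasome genes in each. Deviations of same-numbered libraries had correlations of -0.0955 to 0.0558. Within a group the deviations of the group-tag libraries are mirror images. These correlations therefore cannot decide whether the numbers pair samples.

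The number of proteasome genes whose groups do not overlap moved as well. For db/db vehicle against db/m vehicle (0) it was 1 without TMM factors, 1 with the highest transcript, 4 without db/m vehicle S184 and S185, and 0 to 3 leaving out 1 library. For puerarin against vehicle (2) it was 1 with DESeq2 size factors, 1 without TMM factors, 1 with the highest transcript, 17 without db/db puerarin 2 and 3, and 1 to 6 leaving out 1 library. For db/db puerarin against db/m vehicle (3) it was 15 without db/db puerarin 2 and 3, 11 without db/m vehicle S184 and S185, and 4 to 7 leaving out 1 library. Groups left with 1 or 2 libraries overlap less by construction. The shares over all genes in these settings are not given here, so these counts show nothing particular to the proteasome genes. The median over the 48 genes for puerarin against vehicle ran from -0.064 (without db/db puerarin 2) to 0.0665 (without db/db puerarin S144).

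Each group has 3 or 4 libraries, and the 95% intervals given show which sizes of change these data still allow.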
